A study of Capra hircus with 2 samples.

Results

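The cells described here are droplet barcodes from the fetal goat ovary at E125 that carried many transcripts of MGP, the gene for matrix Gla protein, together with type I collagen transcripts. A barcode was included if it had 500 or more detected genes, 5 or more unique molecular identifiers (UMIs, each standing for 1 captured transcript) of MGP, and 2 or more of COL1A1 plus COL1A2. It also had 1 or fewer UMIs of NOTCH3 plus ACTA2 and 2 or fewer of TOP2A, CENPF and TPX2 together, and 0 UMIs of PECAM1, KDR, FST and AIF1. Of 8346 E125 barcodes, 7645 had 500 or more genes and 1139 of these met every condition, which is 14.9% (95% exact binomial interval 14.1 to 15.7, covering counting error only). They are called MGP-high members below. Because measured values of these 12 genes chose the members, every comparison below is a description.

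Matrix Gla protein is a small secreted protein that depends on vitamin K for the carboxylation of its glutamate residues. It is known for keeping arteries and cartilage from calcifying and for binding bone morphogenetic proteins (BMPs). In the developing ovary, stromal cells lie between and around the germ cell nests and follicles, lay down matrix and give rise to part of the later interstitial and thecal tissue.

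The study profiled female goat (Capra hircus) ovaries at E85 and E125 by droplet single-cell RNA sequencing, with 1 library per stage and no treatment or genetic change named. The labels give ovary as the tissue, while the dissociation protocol attached to both samples speaks of testicular tissue. They give neither breed nor the number of animals pooled. With 1 library per stage there is no test between stages, and no p-value is given anywhere. Levels are UMIs summed over a group of barcodes, divided by the group's total and multiplied by 1000000 (CPM). Intervals are 95% exact intervals that cover counting error only.

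The E125 library held 49692252 UMIs and the E85 library 17748948. The members had a median of 3504 UMIs (range 1024 to 15729) and 1361 genes, with a median of 3.51% of UMIs from mitochondrial genes. That share was above 20% in 1 member. There were 13 barcode sequences shared by the libraries, and 0 of them were members. Of the members, 93 (8.17%) were among the E125 barcodes with the highest doublet scores, against 6.66% of the other E125 barcodes.

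Against the other E125 barcodes as a whole, the stromal label held on 4 of 5 markers that played no part in the choice. DCN (the proteoglycan decorin), LUM (lumican), PDGFRA (a platelet-derived growth factor receptor), and the transcription factors NR2F2 and TCF21 summed to 5229 CPM in members and to 1938 CPM in the other 6506 E125 barcodes. DCN, PDGFRA, NR2F2 and TCF21 were each higher in members, while LUM was about equal (45.6 against 43.8 CPM) and read in 7.11% of members against 9.44% of the others. Of members, 98.1% had 5 or more UMIs of the 5 together. The same 5 markers summed to 6785 CPM in MGP-low stromal barcodes and 5208 CPM in perivascular barcodes, both defined below. The sum thus did not set members apart from these groups. Summed markers of each other cell type were lower in members than in the other barcodes. The rule excluded barcodes with FST, AIF1, PECAM1 or KDR and capped NOTCH3 plus ACTA2, while the other barcodes kept them. Lower pregranulosa, myeloid, endothelial and perivascular sums therefore partly restate the rule. Pregranulosa markers outside the rule summed to 9.67 CPM in members against 226 CPM in the other barcodes, with LGR5 at 0. Myeloid markers summed to 2.07 CPM against 66.7 CPM, with CD68 and TYROBP at 0. Endothelial markers summed to 42.4 CPM against 209 CPM, and 39.6 CPM of the members' sum came from EMCN, while CDH5 stood at 0.230 CPM. Germ cell markers summed to 156 CPM against 3294 CPM, of which ZP3, a zona pellucida gene of oocytes, gave 109 CPM. ZP3 stood at 148 CPM in MGP-low stromal barcodes and 145 CPM in the collagen-poor group defined below, so the members were not set apart by it. Lymphoid markers summed to 4.37 CPM, with both CD3 genes at 0, surface epithelial markers to 21.4 CPM with LRRN4 at 0, glial markers to 9.67 CPM and steroidogenic markers to 16.6 CPM with INSL3 at 0. The erythroid marker ALAS2 was at 0. Not every marker chosen was found by its symbol: 3 of 5 glial, 3 of 5 steroidogenic and 1 of 4 erythroid markers were. It was also so for 6 of 7 myeloid, 4 of 5 lymphoid and 5 of 7 surface epithelial markers. CYP17, given below, is not in the steroidogenic sum. The genes given here at 0 were also low in the other barcodes, from CD3D at 0.0224 CPM to LRRN4 at 1.68 CPM. Their absence in members therefore says little. Perivascular markers outside the rule summed to 209 CPM against 270 CPM, and MYH11, smooth muscle myosin heavy chain, made up 173 CPM of the members' sum. Of those 6 markers, 2 were higher in members: PDGFRB (18.4 against 6.22 CPM) and TAGLN (14.7 against 9.01 CPM), which stood at 22.5 and 23.5 CPM in MGP-low barcodes.

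MGP itself was read in 12991 UMIs of the members, or 2991 CPM (2940 to 3043). A member held a median of 10 MGP UMIs, the quartiles lay at 7 and 14, and the highest held 50. 4 other groups of E125 barcodes were set beside them, defined after values had been seen. MGP-low stromal barcodes (1358) met the same conditions except that they had 4 or fewer MGP UMIs, and their MGP level was 477 CPM. Collagen-poor MGP-high barcodes (722) met every condition except that COL1A1 plus COL1A2 was 1 or less, and stood at 3716 CPM (3634 to 3801). Perivascular barcodes (569), with NOTCH3 plus ACTA2 of 3 or more and none of the excluded markers, stood at 781 CPM. Dividing stromal barcodes (98), which met the collagen and other conditions but had 3 or more UMIs of TOP2A, CENPF and TPX2, stood at 930 CPM. MGP was thus not held by the members alone: of 2471 E125 barcodes with 5 or more MGP UMIs, 1332 were no members, and 722 of those failed the collagen condition alone.

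**Figure D1:**
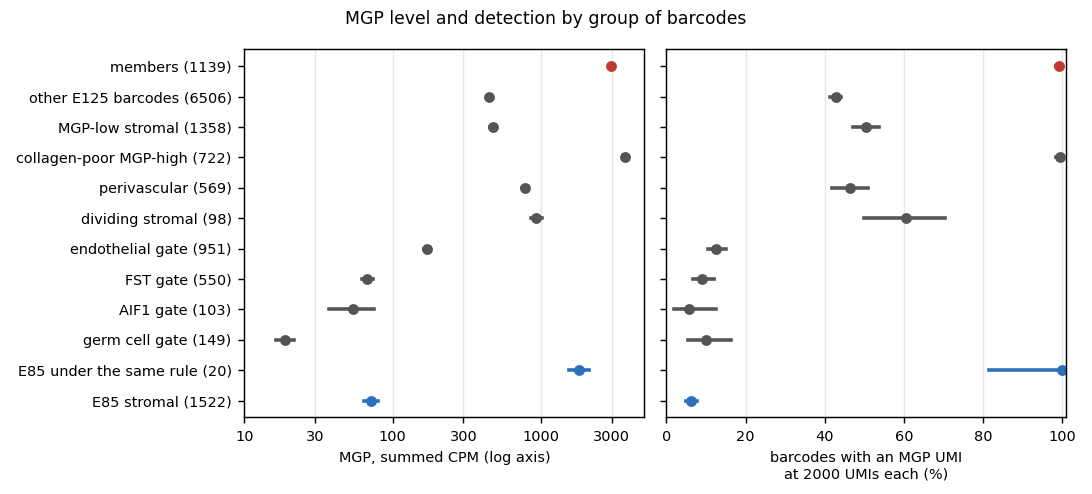
MGP in each group of barcodes, with the number of barcodes in parentheses. The left panel gives the level in CPM on a log axis with exact Poisson intervals, the right panel the percentage of barcodes with an MGP UMI after each was thinned to 2000 UMIs, with exact binomial intervals; red marks members, grey other E125 groups and blue E85 groups. Members (2991 CPM) and collagen-poor barcodes (3716 CPM) lie above all other E125 groups shown. The right panel leaves out barcodes of fewer than 2000 UMIs.

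Barcodes gated on genes of other cell types carried little MGP. The level was 170 CPM in 951 barcodes with 2 or more UMIs of PECAM1 plus KDR (endothelial), 67.7 CPM in 550 with 2 or more of FST (a pregranulosa gene), 54.0 CPM in 103 with 2 or more of AIF1 (macrophages), and 18.9 CPM in 149 with 3 or more of DDX4, DAZL and FIGLA (germ cells). A barcode could enter more than 1 of these gates. After thinning to 2000 UMIs each, an MGP UMI was read in 99.1% of members, 50.5% of MGP-low barcodes and 46.4% of perivascular barcodes. The share was 12.6% in the endothelial gate, 9.92% in the germ cell gate, 9.11% in the FST gate and 5.62% in the AIF1 gate. In the endothelial gate, 99 barcodes held 5 or more MGP UMIs and 1 held 190. The parts of free RNA and of doublets in these shares were not tested. Median depths before thinning were 3504 UMIs in members, 6063 in the endothelial gate and 30749 in the germ cell gate, and shallower barcodes (90 members, 92 and 18) were left out.

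The conditions of the rule are cuts through a continuous range. Among barcodes that met all other conditions, 159 had 4 MGP UMIs and 119 had 5, with medians of 2909 and 2961 total UMIs. Those with 0 MGP UMIs (560) had a median of 2473.5 total UMIs and those with 10 (75) had 3727, so membership also moved with depth. On the collagen side, 341 members had exactly 2 UMIs of COL1A1 plus COL1A2 and 233 had 3, while 406 of the collagen-poor barcodes had 1 and 316 had 0. COL1A1 stood at 576 CPM in members and at 1201 CPM in MGP-low barcodes, and COL1A2 at 905 and 1847 CPM. Of the genes required to be low or absent, NOTCH3 was at 54.8 CPM in members and ACTA2 at 14.3 CPM.

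MGP-low stromal barcodes differ from the members in the MGP condition of the rule alone. Of 7691 genes with 50 or more summed UMIs, 57 (0.741%) were 2-fold or more higher in members and 149 (1.94%) were 2-fold or more lower. Median depth was 3504 UMIs in members and 2615.5 in MGP-low barcodes. The median log2 ratio over all these genes was -0.03.

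Secreted regulators, matrix modifiers and prostaglandin genes stood among the 10 named genes with the highest ratios. WIF1, a secreted WNT inhibitor, was at 79.9 CPM in members and 23.3 CPM in MGP-low barcodes, 3.43-fold higher (2.71 to 4.38). WNT5A, a WNT ligand that mostly acts without beta-catenin, was at 548 and 244 CPM, 2.25-fold higher (2.08 to 2.43). ID3, a BMP-responsive inhibitor of basic helix-loop-helix factors, was at 797 and 364 CPM, 2.19-fold higher (2.05 to 2.33). At least 1 UMI was read in 72.2% of members for WNT5A and 65.4% for ID3, against 35.9% and 33.1% of MGP-low barcodes, so neither level came from a few barcodes.

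PTGER2, a prostaglandin E2 receptor, stood at 66.3 and 24.6 CPM, and PLA2G4A, the phospholipase that frees arachidonic acid for prostaglandin synthesis, at 99.7 and 43.2 CPM. PCOLCE2, which enhances the trimming of procollagen, was at 217 and 85.4 CPM. SERPINF1, which encodes the antiangiogenic pigment epithelium-derived factor, was at 172 and 71.1 CPM, and THBS1 (thrombospondin-1, a matricellular protein) at 199 and 90.3 CPM. ITIH5, a hyaluronan-binding heavy chain, stood at 549 and 257 CPM and TNFAIP8L3 at 58.5 and 28.2 CPM. These 7 genes were between 2.07-fold and 2.70-fold higher in members.

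Growth factor binding proteins, TGF-beta family genes and a neuropeptide gene were among those with the lowest ratios. IGFBP3, a carrier of insulin-like growth factors, was at 9.21 CPM in members and 89.5 CPM in MGP-low barcodes, 9.72-fold lower (6.99 to 13.8). DLK1, a membrane protein of the Notch ligand family known for holding back differentiation, was at 16.3 and 108 CPM, 6.6-fold lower (5.12 to 8.61). INHBA, the subunit of activin A, was at 37.5 and 135 CPM, and LTBP1, which tethers latent TGF-beta to the matrix, at 123 and 421 CPM. EDIL3 (an integrin-binding matrix protein), PDGFRL, DCLK1, NRK and PENK (the enkephalin precursor) were 3.21-fold to 4.32-fold lower. DLK1 was read in 7.66% of MGP-low barcodes and 2.11% of members, and PENK in 15.7% and 10.2%, so these levels rest on minorities in both groups. One member gave 15.5% of the members' DLK1 UMIs and 1 gave 15.1% of their PENK UMIs.

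**Figure D2:**
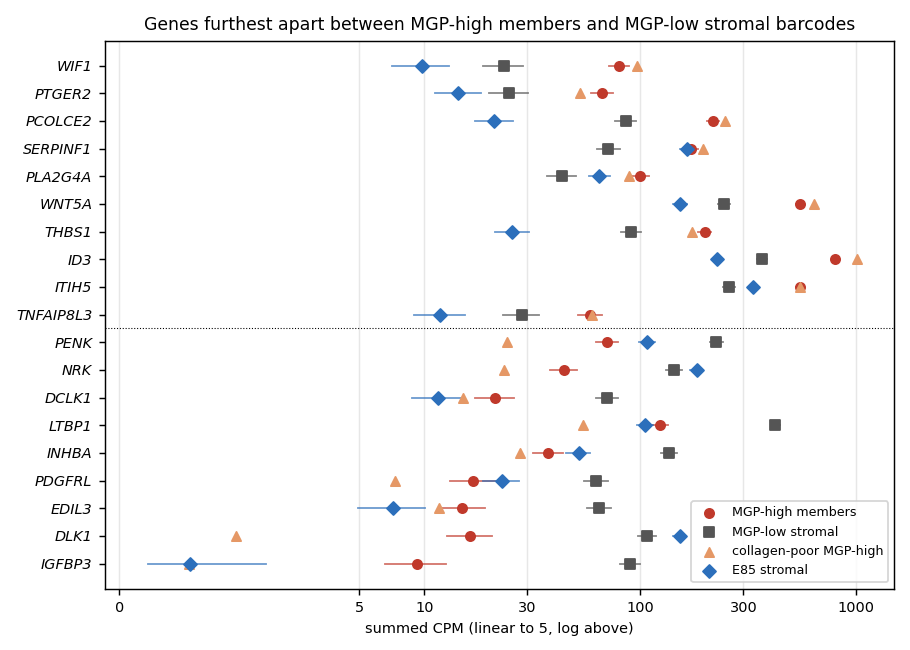
Levels of 19 genes with the highest (above the dotted line) and lowest ratios between MGP-high members and MGP-low stromal barcodes, in CPM (linear to 5, log above), also in collagen-poor MGP-high and E85 stromal barcodes. Bars are exact Poisson intervals for members, MGP-low and E85 stromal barcodes; collagen-poor points have none drawn. WIF1 lies at 79.9 CPM in members and 23.3 CPM in MGP-low barcodes, IGFBP3 at 9.21 and 89.5 CPM.

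Type I collagen was not the only matrix gene with a lower level in members, and 5 of the 6 matrix lists held 2 or 3 genes past 2-fold. Of 8 measured fibrillar and associated collagens outside the rule, 0 were 2-fold higher and 0 lower, with a median log2 ratio of -0.62. COL12A1, a collagen on the fibril surface, was at 448 and 269 CPM, while COL5A2 was at 240 and 379 CPM and COL6A2 at 184 and 341 CPM. Of 8 small leucine-rich proteoglycans, 0 were higher and LUM (45.6 against 135 CPM) and ASPN (46.0 against 99.1 CPM) were lower, with a median of -0.46. DCN stood at 3185 and 4696 CPM. The median over all 7691 genes was -0.03.

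Of 19 elastic fibre and matricellular genes, THBS1 was higher and LTBP1 and FN1 (8.75 against 17.6 CPM) were lower, while SPARC was at 1259 and 1980 CPM and VCAN at 646 and 634 CPM. Of 13 basement membrane genes, 0 were higher and COL15A1 (11.1 against 33.6 CPM) and LAMA4 (7.60 against 22.0 CPM) were lower. Of 14 genes of collagen processing and crosslinking, PCOLCE2 was higher and ADAMTS2 lower (12.4 against 28.7 CPM), while SERPINH1, the collagen chaperone, was at 1227 and 1363 CPM. Of 15 proteases and inhibitors, SERPINF1 was higher and ADAMTS1 (208 against 466 CPM) and ADAMTS12 (8.52 against 17.8 CPM) were lower.

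Signalling lists were mixed. Of 15 measured WNT genes, WNT5A and WIF1 were higher and SFRP1 (13.8 against 43.5 CPM), RSPO3 (6.45 against 16 CPM) and DKK1 (3.91 against 18.4 CPM) were lower, with a list median of 0.06. SFRP1 and DKK1 encode secreted WNT inhibitors like WIF1, and RSPO3 a secreted enhancer. SFRP2, another secreted inhibitor, was at 309 and 297 CPM. Of 18 BMP genes, ID3 was higher and CHRD (chordin, a BMP antagonist) was lower at 4.37 and 12.4 CPM. ID1 was at 243 and 144 CPM. Of 14 TGF-beta and activin genes, INHBA and LTBP1 were lower and 0 higher, while TGFB2 was at 133 and 73.7 CPM.

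Of 11 hedgehog and PDGF genes, 0 were higher and PTCH1 (24.6 against 52.0 CPM), HHIP (2.76 against 18.1 CPM) and PDGFA (14.0 against 29.0 CPM) were lower. PTCH1 is the hedgehog receptor and HHIP a hedgehog-binding protein, and both are known transcriptional targets of the pathway. PDGFRA was at 296 and 321 CPM. Of 12 insulin-like growth factor genes, IGFBP3 alone passed 2-fold; IGFBP2 was at 811 and 442 CPM and IGFBP5 at 1651 and 2100 CPM. Of 15 gonadal and mesenchymal transcription factors, 2 were lower, among them LHX9 (3.68 against 21.0 CPM), and 0 higher. TCF21 stood at 992 and 854 CPM and NR2F2 at 710 and 779 CPM.

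In the list of vitamin K and mineralization genes, 7 genes were measured and 0 were higher. GGCX, the carboxylase that acts on matrix Gla protein, was at 9.44 and 7.24 CPM. GAS6 and PROS1, which are also vitamin K-dependent proteins, were at 104 and 133 CPM and at 139 and 126 CPM. ALPL, the alkaline phosphatase of mineralizing tissue, was lower at 6.68 and 18.6 CPM. Of 10 steroidogenesis genes and receptors, CYP11A1 (7.83 against 19.1 CPM) was lower. CYP17, a steroidogenic enzyme gene singled out after its values were seen, was at 5.30 and 19.1 CPM. Of 17 guidance and adhesion genes, CD44, the hyaluronan receptor, was higher at 30.2 and 8.54 CPM. In that list 2 genes were lower, among them SLIT2 (4.37 against 12.7 CPM). Of 10 chemokine and complement genes, 0 were higher and CXCL14 was lower (8.52 against 32.1 CPM). Of 6 genes in a list of stromal neuropeptides and E85 stromal genes, 0 were higher and 2 lower, among them NPY (0.921 against 21.7 CPM).

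Lists for cell state showed little difference. Of 9 interferon-induced genes, 13 immediate early and heat shock genes, 12 mitochondrially encoded genes and 6 nuclear oxidative phosphorylation genes, 0 passed 2-fold in either direction. Of 10 cell cycle genes, CCND1 (cyclin D1) was lower at 56.9 and 156 CPM. CDKN1C, a cell cycle inhibitor, was at 305 and 453 CPM. Of 12 smooth muscle genes, ACTG2 was lower at 63.1 and 154 CPM.

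To see how these differences ran along the range of MGP, members and MGP-low barcodes were thinned to 2000 UMIs each. They were then grouped by their MGP count after thinning. Over both groups 2010 barcodes were deep enough, 1049 of them members, and 487 were not. The steps held 485 barcodes at 0 MGP UMIs, 269 at 1, 227 at 2, 355 at 3 to 4, 262 at 5 to 6, 222 at 7 to 9 and 190 at 10 or more. These barcodes are the ones from which the named genes above were chosen, so the steps describe the shape of the difference and add no separate evidence for it.

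The named genes that were higher in members were already higher at low MGP counts. WNT5A stood at 147 CPM at 0 MGP UMIs, 290 at 1, 443 at 2, 441 at 3 to 4, 529 at 5 to 6, 606 at 7 to 9 and 747 at 10 or more. ID3 ran from 206 CPM at 0 through 579 at 2 to 1029 at 10 or more. PCOLCE2 ran from 59.8 to 353 CPM, SERPINF1 from 30.9 to 247 CPM, ITIH5 from 155 to 774 CPM and WIF1 from 11.3 to 121 CPM between the first and last step. For these 6 genes the widest ratio between neighbouring steps lay between 0 and 1 MGP UMIs. WIF1 was at 52.9 CPM at 2, 52.1 (36.7 to 71.8) at 3 to 4 and 95.4 (70.8 to 126) at 5 to 6, and the last 2 intervals overlap. Thinned counts are not the counts of the rule: 250 of the 355 barcodes at 3 to 4 were members. The steps therefore cannot show a change at the threshold of the rule.

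Genes lower in members had higher levels at low MGP counts. LTBP1 was at 604 CPM at 0 MGP UMIs, 309 at 1, 185 at 2, 126 at 5 to 6 and 63.2 at 10 or more. IGFBP3 ran from 154 CPM at 0 through 19.8 at 2 to 0 UMIs at 10 or more. COL1A2 ran from 2324 to 761 CPM, COL1A1 from 1463 to 437 CPM and DCN from 5085 to 2847 CPM. NRK ran from 195 to 18.4 CPM. PENK had no steady order, with 151 CPM at 3 to 4 MGP UMIs between 79.3 at 2 and 57.3 at 5 to 6.

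Stromal markers did not move alike over these steps. DCN fell with MGP as given above, whereas NR2F2 lay between 639 and 761 CPM and PDGFRA between 246 and 369 CPM, with no steady order. The mesenchymal filament gene VIM (vimentin) lay between 4964 and 5705 CPM. TCF21 was at 802 CPM at 0 MGP UMIs and between 957 and 1011 CPM at the other steps.

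**Figure D3:**
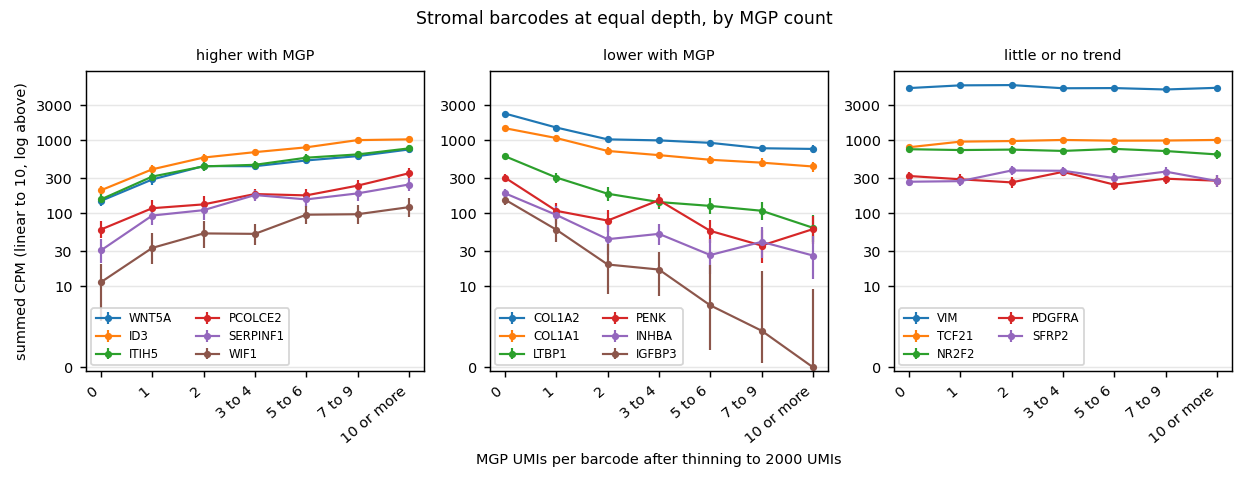
Levels in CPM (linear to 10, log above) of genes in members and MGP-low stromal barcodes at equal depth, by MGP UMIs per barcode after thinning to 2000 UMIs. Points are sums over the barcodes of a step, bars exact Poisson intervals. WNT5A runs from 147 to 747 CPM and LTBP1 from 604 to 63.2 CPM between the first and last steps, while VIM stays between 4964 and 5705 CPM.

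The members alone were also ranked by MGP UMIs per 10000 UMIs and split in 3 groups of 380, 380 and 379, with median MGP of 16.6, 28.7 and 49.3 per 10000. ID3 was at 596, 879 and 998 CPM from the lowest to the highest, WNT5A at 466, 532 and 688 CPM and IGFBP2 at 647, 857 and 998 CPM. APOD, a lipocalin that carries small lipids, was at 210, 264 and 363 CPM. CCL11 (the chemokine eotaxin) was at 142, 34.8 and 9.19 CPM and CHODL (chondrolectin) at 124, 55.0 and 9.19 CPM. The median depth of the 3 groups was 4298.5, 3365.5 and 3006 UMIs. IGFBP3 was not read in the highest group. NRK (77.0, 18.8 and 25.1 CPM) and COL1A2 (1071, 783 and 803 CPM), which fell at every step above, had no steady order here, nor had THBS1 (173, 236 and 194 CPM). TCF21 was at 957, 1027 and 1004 CPM and NR2F2 at 731, 683 and 709 CPM.

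The members were not uniform. Clustering on genes other than the 12 of the rule gave 3 clusters at a resolution of 0.5, numbered 0 to 2. Cluster 0 held 815 members (71.6%), cluster 2 held 311 (27.3%) and cluster 1 held 13 (1.14%). Median depth was 3469, 3605 and 4059 UMIs in clusters 0, 2 and 1. MGP stood at 3238 CPM in cluster 0 and 2366 CPM in cluster 2, and COL1A1 plus COL1A2 at 1120 and 2405 CPM. None of these genes was used to form the clusters, but they had chosen the members. Of cluster 2, 44 barcodes (14.1%) were among the highest doublet scores, against 49 (6.01%) of cluster 0; the part of doublets in the difference was not tested.

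The 10 named genes highest against MGP-low barcodes were all higher in cluster 0 than in cluster 2. WNT5A was at 687 CPM in cluster 0, 201 CPM in cluster 2 and 244 CPM in MGP-low barcodes. PCOLCE2 was at 271, 79.6 and 85.4 CPM in the same order, ITIH5 at 665, 261 and 257 CPM, and ID3 at 961, 385 and 364 CPM. GALNT3, which starts mucin-type glycosylation, led the cluster by ratio at 56.6 CPM against 7.31 CPM in cluster 2. It was followed by PLEKHA7, TMEM163, SLC2A3 (a glucose transporter), FAM184A and SORT1 (sortilin). CADM1, a cell adhesion molecule, was at 535 and 175 CPM and SFRP2 at 374 and 145 CPM. WIF1 was at 96.2 and 41.4 CPM, against 23.3 CPM in MGP-low barcodes.

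Cluster 2 held several matrix genes at levels near those of MGP-low barcodes. DCN was at 5032 CPM in cluster 2, 2467 CPM in cluster 0 and 4696 CPM in MGP-low barcodes. OGN (the proteoglycan osteoglycin) was at 431, 129 and 412 CPM, SPARC at 2015, 961 and 1980 CPM, and ADAMTS1 at 421, 124 and 466 CPM. Other genes differed between cluster 2 and MGP-low barcodes: C3, the central complement component, was at 756, 231 and 425 CPM, IGFBP3 at 30.0, 0.982 and 89.5 CPM, DLK1 at 38.2, 7.85 and 108 CPM and CCL11 at 234, 7.20 and 45.3 CPM. CLDN1 (claudin-1, a tight junction protein) led the cluster at 65.8 CPM against 0.982 CPM in cluster 0. CCL11 followed, then CHODL at 231 against 6.87 CPM. HAPLN1, which links hyaluronan to proteoglycans, was at 97.4 against 7.20 CPM. CCL11 is a minority signal, since it was read in 4.74% of all members and 1 member gave 16.5% of its UMIs.

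Of the 5 stromal markers used above, DCN, LUM and PDGFRA were higher in cluster 2, with LUM at 25.5 CPM in cluster 0 and 97.4 CPM in cluster 2 and PDGFRA at 241 and 442 CPM (1.83-fold, 1.64 to 2.05). The transcription factors were closer, with TCF21 at 920 and 1176 CPM and NR2F2 at 734 and 651 CPM. Cluster 1 was led by interferon-induced genes, with ISG15 at 1654 CPM against 24.7 CPM in the other members and MX1 at 1352 against 48.0 CPM. Its 13 barcodes are too few for more. At a resolution of 1 the members fell into 11 clusters, 7 of which had 90% or more of their barcodes in 1 of the 3 clusters; the lowest such share was 62.3%. The 3 clusters are a coarse division, and because the same cells and genes made them, their leading genes are descriptions.

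**Figure D4:**
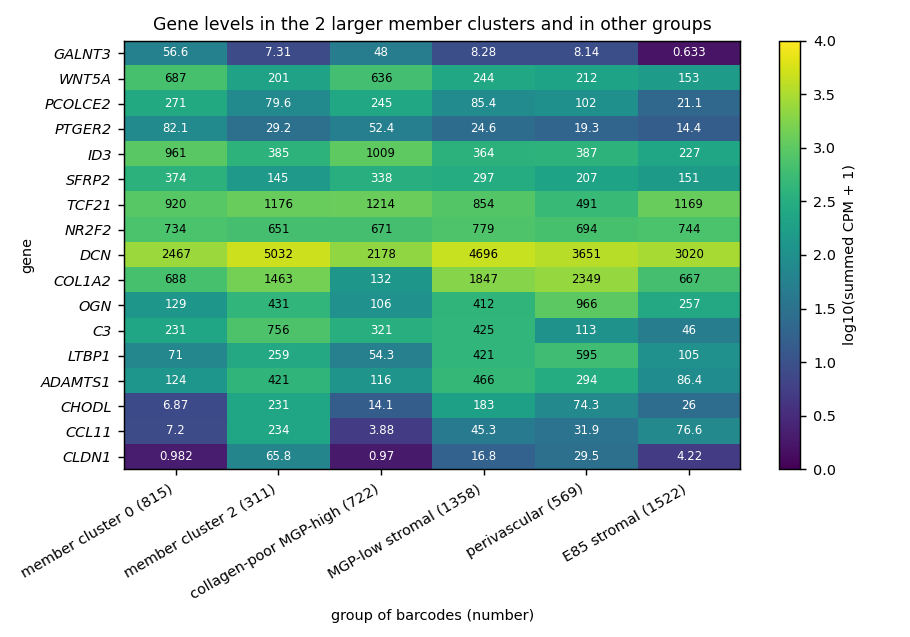
Levels of 17 genes in the 2 larger member clusters and in 4 other groups of barcodes, numbers of barcodes in parentheses. Cells print CPM and the color gives log10(CPM + 1). WNT5A is at 687 CPM in member cluster 0, 636 CPM in collagen-poor MGP-high barcodes and 201 CPM in member cluster 2, while DCN is at 2467, 2178 and 5032 CPM.

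The collagen-poor MGP-high barcodes, a group set beside the members after the data had been seen, differed from the members in few genes. Of 7075 measured genes, 51 (0.721%) were 2-fold or more higher in members and 13 (0.184%) were 2-fold or more lower. Both groups share the MGP condition and differ in the collagen condition, so the COL1A1 and COL1A2 difference (576 against 65.0 CPM and 905 against 132 CPM) is the choice itself. Median depth was 3504 UMIs in members and 2645.5 in the collagen-poor group.

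The 5 named genes that were highest in members by ratio were genes of cluster 2 or of minorities. CCL11 was at 71.4 and 3.88 CPM (18.4-fold, 9.22 to 43.0), CHODL at 70.4 and 14.1 CPM, NTS (neurotensin) at 65.4 and 17.5 CPM, PENK at 70.2 and 24.3 CPM and ARHGAP20 at 68.6 and 24.3 CPM. The 5 lowest, ISG15, CDADC1, KRT25, CMTM8 and SIVA1, were 1.5-fold to 1.62-fold lower and none reached 2-fold. WNT5A was at 548 CPM in members and 636 CPM in collagen-poor barcodes, ID3 at 797 and 1009 CPM and TCF21 at 992 and 1214 CPM. Member cluster 0 stood at 687 CPM for WNT5A, 961 CPM for ID3 and 920 CPM for TCF21, so TCF21 in collagen-poor barcodes lay nearer to cluster 2 (1176 CPM) and the others nearer to cluster 0.

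Of 8 small leucine-rich proteoglycans, 3 were higher in members than in collagen-poor barcodes: OGN (213 against 106 CPM), ASPN (46.0 against 15.5 CPM) and LUM (45.6 against 13.1 CPM). Of 8 other fibrillar and associated collagens, 0 passed 2-fold, with a median log2 ratio of 0.53 against -0.05 over all measured genes. WNT4, a ligand known for its part in ovarian development, was the WNT gene that was lower in members, at 6.68 and 17.5 CPM.

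Clustering members, MGP-low and collagen-poor barcodes together, again without the 12 rule genes, gave 5 clusters. The largest, of 1610 barcodes, held 66.2% of members, 76.5% of collagen-poor and 22.4% of MGP-low barcodes, and was led by GALNT3, CRISP3, PCOLCE2, WNT5A, ID3 and WIF1. A second, of 1098, held 24.8%, 20.5% and 49.1% in the same order, and ADAMTS1 was highest in it by ratio. A cluster of 284 barcodes with IGFBP3 (328 CPM), DLK1 (388 CPM) and POSTN (71.0 CPM) held 19.9% of MGP-low barcodes but 1.14% of members. One of 194, with CCL11 at 439 CPM and CYP17 at 85.9 CPM, held 6.58% of members and 8.03% of MGP-low barcodes. The interferon genes again formed a cluster, of 33 barcodes, with 1.23% of members. MGP, COL1A1 and COL1A2 were not used to form these clusters, while other collagens were not left out. MGP stood at 3039 CPM in the largest cluster and 270 CPM in that of IGFBP3 and DLK1. Counts of the rule genes had chosen the pooled barcodes, so these levels are descriptions.

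Against perivascular barcodes, the members differed more widely. Of 7381 measured genes, 288 (3.90%) were 2-fold or more higher in members and 375 (5.08%) were 2-fold or more lower, and the median log2 ratio over all of them was 0.11. NOTCH3 and ACTA2 separate the groups by construction. Median depth was 3504 UMIs in members and 3978 in perivascular barcodes.

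Contractile and Notch genes were lower in members. Of 12 measured smooth muscle genes, 0 were higher and 7 lower (median -1.11), among them MYH11 (173 against 975 CPM), ACTG2 (63.1 against 461 CPM) and LMOD1 (8.75 against 37.6 CPM). Of 6 Notch genes, 0 were higher and 5 lower (median -2.28). They were the target genes HEY2 (4.60 against 117 CPM), HES1 (15.0 against 73.2 CPM), HEY1 (6.91 against 28.5 CPM) and HEYL (1.84 against 18.3 CPM), and the ligand JAG1 (28.1 against 136 CPM). Since NOTCH3 and the smooth muscle actin gene ACTA2 chose both groups, neither Notch targets nor contractile genes are independent of the choice. The widest differences were ITGA7, a laminin-binding integrin (1.61 against 89.5 CPM), TAC1 (the substance P precursor, 1.84 against 68.2 CPM), OLFML2A, HEY2 and ESAM. PDGFA, the ligand of PDGFRA, was at 14.0 and 203 CPM.

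Of 8 small leucine-rich proteoglycans, 0 were higher in members and 5 lower (median -1.70), with OGN at 213 and 966 CPM and LUM at 45.6 and 206 CPM. Retinoid and lipid genes leaned the other way: of 13 measured, 5 were higher and 0 lower. They were APOD (269 against 54.9 CPM, 4.9-fold, 4.16 to 5.82), ALDH1A1 (142 against 39.0 CPM) and ALDH1A3 (69.3 against 19.7 CPM), both retinoic acid-forming dehydrogenases, LPL (14.7 against 5.76 CPM) and PTGIS (10.4 against 4.07 CPM). Of 10 chemokine and complement genes, 4 were higher and 0 lower: C3 (386 against 113 CPM), C1S (334 against 138 CPM), C1R (199 against 81.4 CPM) and CCL11. With 10 or more MGP UMIs required of members, CCL11 turned to a log2 ratio of -0.58 against perivascular barcodes. Set against MGP-low barcodes instead, 0 of 13 retinoid and lipid genes and 0 of 10 chemokine and complement genes were higher in members. In the same order, 0 and 1 were lower.

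SEMA3D, a secreted guidance cue, had the highest named ratio at 159 and 31.2 CPM (5.08-fold, 4.09 to 6.39). IVNS1ABP followed APOD at 1015 and 234 CPM, then MXRA5 at 116 and 29.2 CPM and CA3 (carbonic anhydrase 3) at 169 and 42.7 CPM. MGP-low barcodes had SEMA3D at 116 CPM, APOD at 136, IVNS1ABP at 565, MXRA5 at 67.8 and CA3 at 167 CPM. For these genes, levels above perivascular barcodes were thus not limited to members. Of 13 WNT genes, WNT5A (548 against 212 CPM), FRZB (96.5 against 42.4 CPM), WIF1 (79.9 against 27.8 CPM) and LEF1 (28.1 against 12.2 CPM) were higher, and SFRP1 and RSPO3 were lower. TCF21 was at 992 and 491 CPM.

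Against all 6506 other E125 barcodes, of 12867 measured genes 654 (5.08%) were 2-fold or more higher in members and 3276 (25.5%) were 2-fold or more lower. The other barcodes mix oocytes, endothelium, pregranulosa and stroma, and 284 barcodes of 20000 or more UMIs gave 38.2% of all E125 UMIs. Without the other barcodes of 20000 or more UMIs, 170 genes were higher and 1437 lower. The 10 named genes on each side kept 2-fold in that setting.

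CCL11 had the highest named ratio against this mixture, at 71.4 and 11.7 CPM (6.08-fold, 5.27 to 7.01). With 10 or more MGP UMIs required of members, its log2 ratio was 0.35 instead of 2.6. COL12A1 was next at 448 and 83.1 CPM (5.40-fold, 5.11 to 5.70), APOD at 269 and 51.8 CPM, THBS1 at 199 and 42.3 CPM, THBS2 at 297 and 67.6 CPM and MXRA5 at 116 and 24.8 CPM. ITIH5 was at 549 and 126 CPM, AGTR1 (an angiotensin II receptor) at 79.7 and 18.4 CPM, PTGER2 at 66.3 and 15.4 CPM and PLA2G4A at 99.7 and 23.3 CPM. Hedgehog and PDGF genes had a median log2 ratio of 1.09 with 8 of 14 higher and 4 lower, the higher ones including PDGFRA (296 against 82.8 CPM) and GLI2 (40.5 against 13.4 CPM). Of 20 elastic fibre and matricellular genes 9 were higher and 2 lower, of 18 collagen processing genes 7 and 1, and of 8 fibrillar and associated collagens 4 and 0.

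Of the 10 named genes lowest in members, 6 are known from vessels and 1 from oocytes. THSD1 (3 UMIs in members, 0.691 against 60.3 CPM, ratio 87.2, 29.8 to 423), CA4, CCL21, VWF (von Willebrand factor), LMO2 and LYVE1 are the genes known from blood or lymphatic endothelium. NPM2 is an oocyte nucleoplasmin. CCL21 was at 9.44 and 559 CPM, and 1 other barcode gave 19.5% of the CCL21 UMIs of the rest. DERL3, AMN and DEPP1 completed the 10. Notch genes were lower, with 9 of 11 past 2-fold and a median of -2.08, against a median of -0.16 over all measured genes. The rule excluded barcodes with PECAM1 or KDR, so the low vascular genes partly restate it. It also capped NOTCH3 plus ACTA2, so the low Notch genes partly restate it as well. Against MGP-low barcodes, which met the same cap, 1 of 5 measured Notch genes was lower in members and 0 were higher.

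At E85 almost no barcode met the rule. Of 4028 E85 barcodes with 500 or more genes, 61 had 5 or more MGP UMIs and 20 met every condition (0.497%, 0.304 to 0.766), against 14.9% at E125. Of the 61, 34 had more than 1 UMI of NOTCH3 plus ACTA2. MGP stood at 1811 CPM in the 20 barcodes. E85 barcodes that met the rule without regard to MGP numbered 1522, with 71.4 CPM (64.0 to 79.4) of MGP and a median depth of 2884 UMIs. Of their 338 MGP UMIs, 168 came from the 20 that met the rule. After thinning, which left out 291 shallower barcodes, 6.34% of the remaining 1231 had an MGP UMI. The part of free RNA in that share was not tested. The stages differ by library, so stage and library cannot be told apart.

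Against the 20 E85 barcodes that met the rule, of 6187 measured genes 1108 (17.9%) were 2-fold or more higher in members and 846 (13.7%) lower. In a group this small the 3 UMIs that replace 0 equal 32.3 CPM. Of the 846, 290 had 0 UMIs at E85 and count as lower by this construction, which leaves 556. The count of lower genes was 119 with a minimum of 200 summed UMIs. Higher genes made up 56.7% of all that passed, and 66.6% without those 290. With such genes kept, they made up 73.9% with TMM and 70.8% with DESeq2 scaling, where the median log2 ratio over all genes was 0.29 and 0.25, against 0.05 unscaled. PRKAR2B, a regulatory subunit of protein kinase A, had 788 CPM in members and 0 UMIs in the 20 barcodes, a ratio of 24.4 against a floor of 3 UMIs in the group and at least 19.8-fold higher by the lower end of its interval. NCOR1, BTG1 and GSPT1 had 1 UMI each at E85 and TMEM47 had 2, with ratios of 17.3 to 20.4 whose intervals ran from 3.1 to 808. POSTN (periostin) was at 11.1 against 1110 CPM, but 1 of the 20 barcodes gave 31.1% of its E85 UMIs. WFDC2, KRT27, TSPO and TUBG1 were 6.69-fold to 17.9-fold lower. With 20 barcodes on 1 side, these values are of little weight.

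The 1522 E85 stromal barcodes, a comparison added after the data had been seen, give a firmer count. Of 8032 measured genes, 1250 (15.6%) were 2-fold or more higher in E125 members and 910 (11.3%) lower, with a median log2 ratio of -0.03. MGP is part of the choice of members and not of the E85 group. The highest named ratios were C4orf48 (99.0 against 0.845 CPM), CDC42EP5 (66.1 against 1.27 CPM), SPON2, a matrix protein (343 against 8.66 CPM, 39.7-fold, 29.1 to 55.5), ID1 (243 against 6.33 CPM, 38.4-fold, 26.7 to 57.2) and PODXL2. The lowest were the neuropeptide gene NPY (4 UMIs, 0.921 against 115 CPM), TUBB2B (a beta-tubulin), NELL2, POSTN (11.1 against 114 CPM) and DLK1 (16.3 against 152 CPM).

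Some of these genes were as high elsewhere at E125, and some were wider apart in members. ID1 stood at 535 CPM and C4orf48 at 140 CPM in the other E125 barcodes as a whole, above members, so their high levels at E125 were not limited to members. SPON2 was at 529.8 CPM in E125 MGP-low barcodes, above members. ID1 was at 144 CPM in MGP-low barcodes, between E85 stroma and members. IGFBP2 was at 49.4 CPM in E85 stroma, 442 CPM in MGP-low barcodes and 811 CPM in members, APOD at 20.3, 136 and 269 CPM, and WIF1 at 9.71, 23.3 and 79.9 CPM. DLK1 was at 152, 108 and 16.3 CPM. TCF21 was at 1169, 854 and 992 CPM and NR2F2 at 744, 779 and 710 CPM, so these stromal factors had similar levels in the 3 groups.

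By list against E85 stroma, 7 of 16 BMP genes were higher and 0 lower (median 0.85), among them ID1, ID3 (797 against 227 CPM), ENG (endoglin, 231 against 102 CPM) and BMPR1A (35.9 against 6.55 CPM). Of 15 guidance and adhesion genes 8 were higher and 0 lower (median 1.07), with ITGB1 at 519 and 237 CPM and ITGA8 at 98.8 and 38.2 CPM. Of 13 basement membrane genes 5 were higher, including COL4A1 (216 against 55.5 CPM) and COL4A2 (214 against 28.7 CPM), and LAMA4 was lower. Of 8 fibrillar and associated collagens outside the rule 4 were higher and 0 lower, including COL12A1 (448 against 81.5 CPM) and COL14A1 (135 against 27.0 CPM). In E125 MGP-low barcodes COL14A1 was at 237 CPM, above members, and ITGB1 at 512 CPM. COL4A1 was at 169 CPM there, COL4A2 at 167 CPM and COL12A1 at 269 CPM, between E85 stroma and members. For these genes, levels above E85 stroma were thus not limited to members.

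Of 14 collagen processing genes 6 were higher and 1 lower, with PCOLCE2 at 217 and 21.1 CPM. Of 10 steroidogenesis genes and receptors 5 were higher and 0 lower, including FDX1 (44.0 against 3.38 CPM), PGR (the progesterone receptor, 26.7 against 5.28 CPM) and ESR1 (an estrogen receptor, 12 against 1.90 CPM). In the comparison with E125 MGP-low barcodes, 0 of 10 measured genes of that list were higher in members and 1 was lower. GAS6, the vitamin K-dependent ligand, was at 104 and 5.07 CPM, while VKORC1, which recycles vitamin K, was at 31.1 and 80.4 CPM. E125 MGP-low barcodes had GAS6 at 133 CPM and VKORC1 at 31.8 CPM.

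Proteoglycan, respiratory and interferon genes were more often lower. Of 8 small leucine-rich proteoglycans 0 were higher and LUM (45.6 against 263 CPM), ASPN and PRELP were lower. Of 6 nuclear oxidative phosphorylation genes, 0 were higher and 4 lower, with COX8A at 33.8 and 147 CPM. Of 10 interferon-induced genes, ISG15 (45.8 against 189 CPM), MX1 and MX2 were lower. ISG15 was at 43.2 CPM and MX1 at 54.3 CPM in E125 MGP-low barcodes, so their low levels were not limited to members. Between members and MGP-low barcodes, 0 of 6 respiratory and 0 of 9 interferon-induced genes passed 2-fold. Of 14 immediate early and heat shock genes 5 were higher and 3 lower, with JUN at 669 and 94.6 CPM and FOS at 64.7 and 265 CPM; these genes respond to tissue handling, whose part was not tested.

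**Figure D5:**
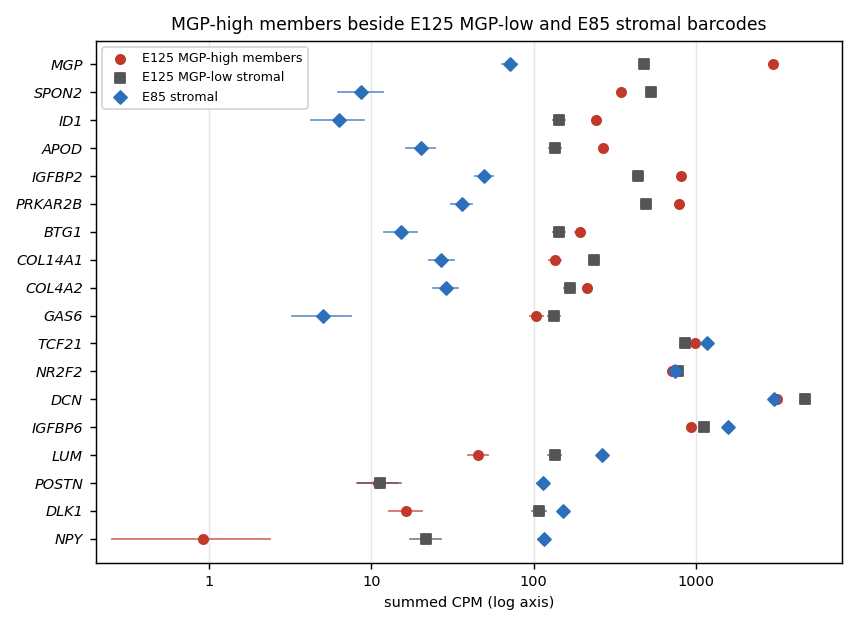
Levels in CPM (log axis) of 18 genes in E125 MGP-high members, E125 MGP-low stromal barcodes and E85 stromal barcodes, with exact Poisson intervals. ID1 lies at 243, 144 and 6.33 CPM, DLK1 at 16.3, 108 and 152 CPM, and NR2F2 at 710, 779 and 744 CPM in that order.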

How the data were processed

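Droplet 3' libraries of goat ovary at E85 and E125 were analysed, 1 per stage. The deposited matrices hold raw UMI counts per gene and barcode, made with Cell Ranger: version 3.1 per the submitters' processing notes, 6.0.0 in the file headers. No genome build is given in the sources used here. Barcodes held 500 or more UMIs as deposited. Of 27271 features, 10655 carried no symbol; they stayed in totals and counts but were not named.

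The members, gene lists and groups were chosen with earlier results of these data known. Counts were summed per group and scaled to 1000000. Genes with 50 or more summed UMIs counted as measured, a ratio of 2 as higher or lower, and 3 UMIs replaced 0. No test was run. Named genes were those with a symbol, outside the 12 rule genes and at 50 CPM or more in a group: the 10 highest and lowest ratios against MGP-low and other E125 barcodes, the 5 highest and lowest in each other comparison, and up to 4 per list of 26 lists, by level and ratio. List genes past 2-fold were named besides, after their values were seen. A few genes, of the rule and of the lists, are not reported here.

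Clusters came from scanpy 1.11.5 (1000 variable genes, 20 components, 15 neighbours, Leiden). Scrublet's own threshold marked 0 E125 and 2 E85 barcodes, so no doublets were removed; the top 557 and 155 scores served as an alternative. Alternatives also used edgeR 4.0.16 (TMM) and DESeq2 1.42.0 factors, thinning and other minimums. Tested on simulated counts for members against MGP-low barcodes (7646 genes), the procedure found 98.0% of 3-fold higher and 97.8% of 3-fold lower genes, called 0.121% of unchanged ones, and its intervals held 95.9% of true ratios. The simulated sums had counting error alone and no spread between barcodes. They do not show how the procedure does where few barcodes give many UMIs, as for CCL11. No sequence of a member gene is printed because none was given in the tables used.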

Additional observations from a re-analysis of the deposited data

How the results depend on the processing

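The number of members, 1139, became 1478 with 3 or more MGP UMIs, 572 with 10 or more, 1396 with 10 or more per 10000 UMIs, 1012 with 1000 or more genes, and 1046 without the highest doublet scores and mitochondrial shares. Counts of genes past 2-fold, higher then lower, moved as follows where they moved by over 1.5 times. Without a count minimum they were 2690 higher against other E125 barcodes, 561 and 877 against MGP-low, 1197 and 1195 against perivascular, 5930 lower against the 20 E85 barcodes, 645 and 507 against collagen-poor, and 2351 and 2129 against E85 stromal barcodes. With 200 or more UMIs they were 393 and 2038, 22 and 47, 106 and 146, 728 and 119, 13 and 0, and 642 and 375 in that order; these minimums by construction test more or fewer genes. Thinned to 2000 UMIs, they were 97 and 984 against other E125 barcodes, 89 lower against MGP-low, 195 lower against perivascular and 527 higher against the 20 E85 barcodes. Against other E125 barcodes they were 247 and 2000 as means over barcodes, and 170 and 1437 without the largest droplets. Against MGP-low barcodes, 108 were higher with 3 or more MGP UMIs, 28 with 10 or more, 100 with 10 or more per 10000 UMIs and 90 for member cluster 0 alone. Against the 20 E85 barcodes, where 290 of 846 lower genes had 0 UMIs at E85, 510 were lower with TMM, 539 with 3 or more MGP UMIs, and 256 higher and 2392 lower with 10 or more. Beyond these constructions the cause was not tested. All 20 named genes against MGP-low barcodes kept 2-fold in each setting except 10 or more MGP UMIs, where 14 did, and 10 or more per 10000 UMIs, where 19 did. CCL11 reversed against perivascular barcodes with 10 or more MGP UMIs (log2 ratio -0.58).

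No paired analysis was possible because each stage has 1 library and no replicate numbers. Depth limits genes under 50 summed UMIs, and intervals cover counting error, not the spread between animals.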
